A study of Mus musculus with 6 samples.

Results

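The machinery that copies DNA in S phase was followed through 53 genes, listed by name for their roles. The list was drawn up with earlier results of these data known, so it is not an independent sample of genes. The table held 54532 genes, the 53 among them, and all 53 passed the filter on low counts. They comprise 11 genes of origin licensing, 7 of helicase activation and 9 of the replicative polymerases. A further 11 encode the sliding clamp, its loader and lagging strand factors, 2 protect the fork and 5 make nucleotides. The last 8 are 4 E2F transcription factors and 4 genes of chromatin assembly and DNA methylation. Libraries were made from cultured mouse endothelial cells, which form the inner lining of vessels, kept in an endothelial medium with 10% serum. All cells received lentivirus for 72 h. It carried either an empty vector (Control 1, 2 and 3) or RBPMS (RBPMS 1, 2 and 3), a protein that binds RNA, and the comparison asks which transcripts differ after RBPMS overexpression. The labels name no strain, sex, age or vascular bed of the cells and no promoter of the vector. They also do not say whether replicates were separate cultures, so p-values reflect only the library-to-library spread, which may be technical.

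DNA replication is prepared in G1, when the origin recognition complex, Cdc6 and Cdt1 load the MCM2-7 helicase on DNA, a step that geminin blocks later in the cycle. In S phase Cdc45 and GINS join and activate the helicase, and polymerases alpha, delta and epsilon copy the strands behind it. Many of these genes are transcribed by E2F factors and peak at the G1/S boundary. Their mRNA level in a culture can therefore vary with the share of cycling cells, which was not measured here.

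Rbpms itself matched the labels. It stood at 57.1, 56.8 and 55.2 CPM (counts divided by the library's TMM-scaled total and set to a common scale) in Control 1, 2 and 3 and at 131, 148 and 133 CPM in RBPMS 1, 2 and 3. The groups did not overlap (two-sided exact permutation test, p = 0.1, the smallest that 3 against 3 allows). Total counts ran from 15779567 to 23076124 per library. Control 3 stood apart: the correlation of log2 levels across genes was 0.959 to 0.965 for pairs that include it and 0.993 to 0.997 for all other pairs. It held more of short transcripts and less of long ones than Control 1 and 2, by a median log2 difference of 0.49 in the shortest quintile of genes and -0.55 in the longest. Results are therefore given with and without it. The summed level of 16 endothelial markers was 17978 to 22555 CPM in controls, lowest in Control 3, and 19569 to 20515 CPM with RBPMS. Fibroblast, smooth muscle, epithelial and cardiomyocyte lists summed to at most 7.79 CPM in any library, with Rgs5, Epcam, Cdh1, Krt18 and Actn2 at 0. Among leukocyte markers Adgre1 and Cd3e were at 0, and the list summed to 42.6 to 47.2 CPM in controls and 54.9 to 60.03 CPM with RBPMS, mostly from Cd68. The 4 mesothelial markers summed to 23.4 to 27.5 CPM in controls and 18.7 to 23.1 CPM with RBPMS, mostly from Msln. The part of these 2 lists in the results below was not tested.

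Replication genes were slightly lower in the RBPMS libraries. Without Control 3, 8 of the 53 fell (15.1%, edgeR quasi-likelihood test, adjusted p under 0.05) and 0 rose, where 3.43% of all 14123 genes tested fell and 3.81% rose. The 8 were Uhrf1, E2f8, Pold2, Mcm2, Rrm2, Rpa1, Tk1 and Dnmt1. The median log2 fold change of the 53 was -0.17, against -0.0025 over all genes tested, and 45 of them (84.9%) were negative against 50.7% of all genes. The RBPMS libraries lay below both controls for 19 members (35.8%) and above both for 0, against 19.0% and 18.3% of all genes. Fewer cells in S phase and less of each mRNA per cell cannot be told apart in such bulk RNA.

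With all 6 libraries 0 members were called in either direction, as were 0% of all 13898 genes tested, and limma-voom also called 0 genes. Rbpms, the overexpressed gene, was not called in that edgeR quasi-likelihood fit either (log2 fold change 1.28 ± 0.10, adjusted p = 0.0606). A lack of calls in it therefore says little about the members. DESeq2 called 56 genes, 15 of them lower, with 0 members among them. At an unadjusted p under 0.05, 6 members were lower and 0 higher, against 4.08% and 3.48% of all genes. The direction was alike: 44 of 53 (83.0%) were negative against 51.0% of all genes, and the median of their log2 fold changes was -0.20, where that of all genes was -0.0083. For 13 members (24.5%) the 3 RBPMS libraries lay below all 3 controls, against 12.5% of all genes, and 0 lay above all 3, against 12.2%. The 53 genes took 0.204%, 0.187% and 0.199% of all counts in Control 1, 2 and 3, and 0.169%, 0.174% and 0.183% in RBPMS 1, 2 and 3. All 3 RBPMS shares lay below the lowest control share.

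Control 1 weighed on the calls. It exceeded Control 2 for 46 of 53 members, by a median log2 difference of 0.14, while over all genes tested it did so for 50.4%. A fit without Control 1 and Control 3 has only 1 control library, which weakens the test for every gene. The fit without Control 2 and Control 3 also has only 1, and there the median log2 fold change of the members was -0.20. Calls over all genes in such fits are not given here. Leaving out Control 1 as well as Control 3 left 1 call, Uhrf1, and a median log2 fold change of -0.07. Without RBPMS 1, the library with the lowest median, 4 calls were left, and with any other library left out the count was 6 to 11. Of the 5 such fits Uhrf1 was called in 5, Mcm2, Pold2 and E2f8 in 4, Rpa1 and Rrm2 in 3, and Tk1 and Dnmt1 in 1. The mean of the RBPMS libraries was below Control 1 for 48 members, below Control 2 for 40 and below Control 3 for 40.

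**Figure D1:**
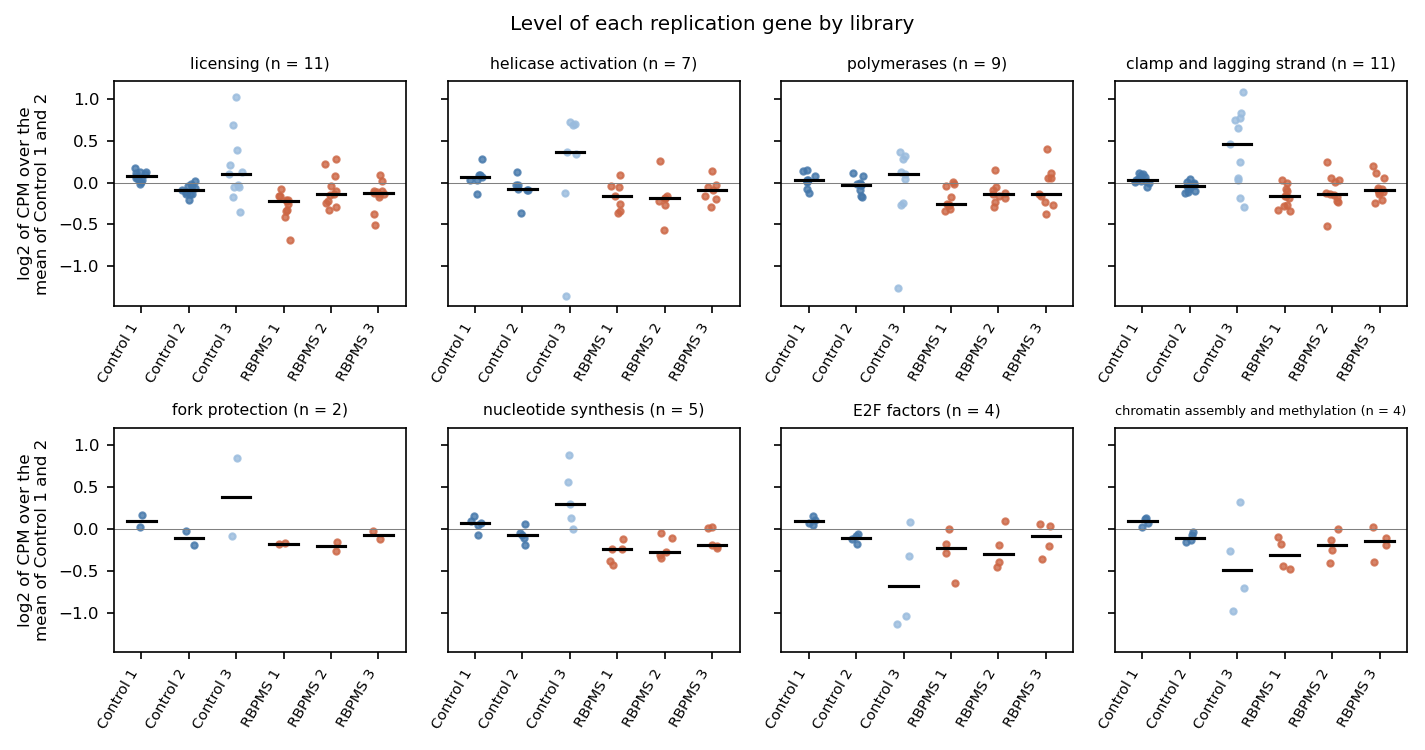
Each panel shows one group of replication genes: points are genes, the vertical axis is the log2 ratio of a library's CPM to the mean of Control 1 and 2, and bars are medians over the genes. Over all 53 genes the medians were 0.07, -0.07 and 0.12 in Control 1, 2 and 3 and -0.21, -0.16 and -0.11 in RBPMS 1, 2 and 3, and Control 3 spreads most widely.

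Promoters of called genes were chosen for printing by their p-values, not by the words they hold. E2F and CCAAT words stood in a larger share of the members than of all genes, a difference that was not tested. RefSeq start sites on GRCm38.p6, the build of the deposited coordinates, were matched by symbol for 44 of the 53. Gins1, Gins2, Gins4, Gmnn, Mcm4, Pole, Prim2, Rfc2 and Tipin had no entry. The search covered 250 bases before and 50 after each start on both strands, for the E2F words TTTCCCGC, TTTCGCGC, TTTGCCGC and TTTGGCGC, for TTTGAA, the word of the CHR element of cell cycle promoters, and for CCAAT. Words may overlap one another. An E2F word stood in 18 of 44 members (40.9%), against 2.6% of all 27025 genes with an entry and 4.7% of the 9878 of these that were also tested without Control 3. CCAAT was found in 28 (63.6%), against 41.1% of all and 43.2% of tested genes. TTTGAA was found in 8 (18.2%), which is below the 20.2% of all genes and above the 14.2% of tested genes. The 9878 are only part of the 14123 genes tested, since the rest were not matched by symbol. Of the 8 genes that fell, 7 had CCAAT, 4 had TTTGAA and 2, Uhrf1 and Dnmt1, had an E2F word, in both cases at a start site other than the one nearest the annotated gene end. The TTTGAA words of Pold2 also stood only at such a further start site, 629 bases away. A match is only a run of letters, and says nothing of what binds there. Printed 5′ to 3′ are the 200 bases before the start of the 6 members with the smallest p, with E2F words, TTTGAA and CCAAT on either strand in capitals. None of these 6 stretches holds an E2F word. Their positions are chr17:56303137-56303336 (plus strand) for Uhrf1, chr6:88898781-88898980 (minus strand) for Mcm2, chr7:48881597-48881796 (minus strand) for E2f8, chr11:5878257-5878456 (minus strand) for Pold2, chr12:24708054-24708253 (plus strand) for Rrm2 and chr11:75348384-75348583 (minus strand) for Rpa1.

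Uhrf1: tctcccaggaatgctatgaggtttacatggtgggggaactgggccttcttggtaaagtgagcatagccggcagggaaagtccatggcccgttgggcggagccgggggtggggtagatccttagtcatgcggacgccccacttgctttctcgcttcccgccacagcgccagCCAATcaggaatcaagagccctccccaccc

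Mcm2: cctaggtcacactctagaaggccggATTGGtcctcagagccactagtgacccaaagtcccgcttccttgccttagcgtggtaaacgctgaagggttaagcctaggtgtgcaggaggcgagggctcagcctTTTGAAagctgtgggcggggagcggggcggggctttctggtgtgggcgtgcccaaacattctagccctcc

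E2f8: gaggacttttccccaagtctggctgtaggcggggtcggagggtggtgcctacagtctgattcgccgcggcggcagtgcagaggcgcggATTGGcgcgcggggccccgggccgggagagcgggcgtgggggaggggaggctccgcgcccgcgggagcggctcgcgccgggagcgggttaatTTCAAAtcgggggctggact

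Pold2: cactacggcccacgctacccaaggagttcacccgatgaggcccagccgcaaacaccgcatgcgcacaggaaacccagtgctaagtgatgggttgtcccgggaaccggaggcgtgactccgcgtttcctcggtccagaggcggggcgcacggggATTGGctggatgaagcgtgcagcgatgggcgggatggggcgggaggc

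Rrm2: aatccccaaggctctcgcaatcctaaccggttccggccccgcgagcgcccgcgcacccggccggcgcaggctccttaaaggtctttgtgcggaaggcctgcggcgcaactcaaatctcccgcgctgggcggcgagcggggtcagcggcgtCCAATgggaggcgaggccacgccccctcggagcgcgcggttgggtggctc

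Rpa1: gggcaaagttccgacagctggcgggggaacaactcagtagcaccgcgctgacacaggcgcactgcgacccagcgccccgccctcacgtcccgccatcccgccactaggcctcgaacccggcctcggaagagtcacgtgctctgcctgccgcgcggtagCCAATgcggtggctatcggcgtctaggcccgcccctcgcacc

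Beside them stand Fen1 at chr19:10204394-10204593 (minus strand), the member with the largest p (Gmnn, next to it, had no entry), and Mcm6 at chr1:128359706-128359905 (minus strand) and Mcm5 at chr8:75109309-75109508 (plus strand). The last 2 were picked after the search because their capitals hold pairs of overlapping E2F words.

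Fen1: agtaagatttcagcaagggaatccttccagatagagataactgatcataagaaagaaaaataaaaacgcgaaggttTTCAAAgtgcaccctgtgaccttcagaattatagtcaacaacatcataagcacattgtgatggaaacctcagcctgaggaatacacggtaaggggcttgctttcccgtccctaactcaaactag

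Mcm6: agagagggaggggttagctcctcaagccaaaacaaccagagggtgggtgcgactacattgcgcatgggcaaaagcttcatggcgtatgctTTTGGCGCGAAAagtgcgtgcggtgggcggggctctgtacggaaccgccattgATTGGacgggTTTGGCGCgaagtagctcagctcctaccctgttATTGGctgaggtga

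Mcm5: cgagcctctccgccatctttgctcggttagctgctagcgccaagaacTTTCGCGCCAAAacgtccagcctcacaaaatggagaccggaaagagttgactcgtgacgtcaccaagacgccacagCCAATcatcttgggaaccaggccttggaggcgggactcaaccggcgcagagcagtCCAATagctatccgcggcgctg

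Origin licensing held 1 of the 8 falling genes. Mcm2, a subunit of the MCM2-7 helicase, stood at 82.5, 68.6 and 59.2 CPM in Control 1, 2 and 3 and at 60.2, 59.99 and 58.4 CPM in RBPMS 1, 2 and 3. Control 3 lay within the RBPMS range, and Control 1 well above all others. Its log2 fold change was -0.34 ± 0.068 (SE, adjusted p = 0.00318) without Control 3 and -0.23 ± 0.14 (adjusted p = 0.587) with it. Mcm2 lies on chromosome 6 from 88883474 to 88898780 on the minus strand (ENSMUSG00000002870).

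The other 5 MCM subunits did not pass the test. Mcm6 was at 68.2, 60.9 and 74.4 CPM in controls and 51.0, 55.5 and 58.9 CPM with RBPMS, groups that did not overlap, with a log2 fold change of -0.23 ± 0.071 (adjusted p = 0.0582 without Control 3). Mcm5 and Mcm7 also did not overlap: the lowest controls were at 58.6 and 55.7 CPM and the highest RBPMS libraries at 57.5 and 52.3 CPM. Mcm7 overlaps Cops6, which had 12561 counts against its 6062, and Ap4m1. Mcm4 was at 88.9, 74.7 and 79.1 CPM in controls and 68.3, 69.3 and 76.1 CPM with RBPMS. Mcm3, at 90.6, 89.0 and 96.3 CPM against 80.1, 87.0 and 91.3 CPM, had a log2 fold change of -0.06 ± 0.058. Mcm3 and Mcm4 overlapped between the groups. The loader genes spread on either side of these: without Control 3 the log2 fold change ran from -0.43 ± 0.20 for Orc1, at 3.32 to 6.16 CPM, to 0.09 ± 0.10 for the loading factor Cdt1. Over the 11 licensing genes the median was -0.20 without Control 3, with 9 negative, and -0.23 with all 6 libraries, with 11 negative. Of all genes 50.7% and 51.0% were negative in these 2 fits.

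In helicase activation 6 of 7 genes were negative in both fits, against 50.7% of all genes without Control 3 and 51.0% with all 6 libraries. The group held no called member in either fit. Cdc45, the helicase cofactor, came nearest, at 27.8, 26.6 and 35.1 CPM in controls and 22.8, 22.7 and 23.8 CPM with RBPMS. All RBPMS libraries lay below all controls, with a log2 fold change of -0.24 ± 0.081 (adjusted p = 0.0816 without Control 3). Its locus overlaps Ufd1, so reads of both could be split wrongly. Ticrr, which brings Cdc45 to origins, was at 11.3, 9.94 and 4.10 CPM in controls and 8.36, 7.11 and 10.4 CPM with RBPMS. Control 3 was far below the rest, so the log2 fold change was -0.30 ± 0.15 without it and 0.04 ± 0.37 with it, and the locus overlaps Kif7. Gins4 of the GINS complex was at 18.3, 16.5 and 28.1 CPM against 16.8, 14.9 and 16.8 CPM, with Control 3 above all others. Its log2 fold change was -0.10 ± 0.10 without Control 3.

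Among the polymerases Pold2, the accessory subunit of polymerase delta, fell. It stood at 44.9, 44.6 and 55.7 CPM in controls and 35.8, 36.5 and 34.4 CPM with RBPMS. The groups did not overlap, with or without Control 3, and the RBPMS libraries were close together. The log2 fold change was -0.33 ± 0.072 (adjusted p = 0.0063) without Control 3 and -0.44 ± 0.12 (adjusted p = 0.587) with it. Pold2 lies on chromosome 11 from 5872180 to 5878292 on the minus strand (ENSMUSG00000020471). Its partner subunits did not pass: Pold1, the catalytic subunit, was at 43.3, 41.7 and 35.3 CPM in controls and 37.8, 41.0 and 38.1 CPM with RBPMS, and Pold3 at 30.7, 29.4 and 31.1 CPM against 30.1, 26.9 and 32.6 CPM. Pola1, the catalytic subunit of polymerase alpha, was at 22.1, 17.8 and 16.8 CPM in controls and 16.6, 18.4 and 16.9 CPM with RBPMS, with a log2 fold change of -0.20 ± 0.10 without Control 3. Its accessory subunit Pola2 was at 41.5, 40.4 and 44.7 CPM against 40.4, 45.4 and 42.6 CPM (0.07 ± 0.074). The median over the 9 genes was -0.13 without Control 3 and -0.07 with it.

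Around the clamp, Rpa1 fell. It encodes the large subunit of the single-stranded DNA-binding protein RPA. Its level was 77.0, 74.4 and 79.0 CPM in controls and 62.4, 65.2 and 65.8 CPM with RBPMS, groups that did not overlap and in which Control 3 lay beside the other controls. The log2 fold change was -0.23 ± 0.057 (adjusted p = 0.0154) without Control 3 and -0.25 ± 0.094 (adjusted p = 0.587) with it. Rpa1 lies on chromosome 11 from 75298166 to 75348324 on the minus strand (ENSMUSG00000000751).

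Pcna, the sliding clamp, was at 75.1, 71.1 and 115 CPM in controls and 65.2, 66.0 and 69.7 CPM with RBPMS. The groups did not overlap, yet the log2 fold change of -0.13 ± 0.059 without Control 3 did not pass (adjusted p = 0.225). The gene copy Pcna-ps2 had 3189 counts over the 6 libraries against 8989 for Pcna, so reads of the pair may be split. The DNA ligase gene Lig1 was at 48.5, 42.3 and 46.3 CPM in controls and 37.6, 38.7 and 42.0 CPM with RBPMS (-0.20 ± 0.078, adjusted p = 0.131), and its locus overlaps Zswim9. Rfc1, the large subunit of the clamp loader, was at 87.3, 85.0 and 70.2 CPM in controls and 86.2, 89.7 and 93.6 CPM with RBPMS (0.06 ± 0.054). For Rfc4 and Rfc5 too the RBPMS libraries lay below all controls, but neither passed. Both share their loci with far more abundant genes, Rfc4 (994 counts over the 6 libraries) with Eif4a2 (64777) and Rfc5 (2481) with Wsb2 (24498), so their values are uncertain. Fen1, which trims Okazaki fragments, had 2.40 to 3.63 CPM in the 6 libraries and shares its locus with the more abundant Tmem258. Over these 11 genes the median was -0.13 without Control 3 and -0.25 with it. The fork protection partners Timeless and Tipin did not pass, at 76.4 to 82.0 CPM in controls and 71.2 to 79.3 CPM with RBPMS for Timeless and 14.0 to 28.9 CPM against 13.3 to 14.7 CPM for Tipin. Timeless had a log2 fold change of -0.12 ± 0.059 without Control 3 and Tipin one of -0.18 ± 0.11.

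In nucleotide synthesis all 5 genes were negative in both fits, against 51.0% of all genes with all 6 libraries and 50.7% without Control 3. Of the 5, 2 fell without Control 3, where 3.43% of all genes did. Rrm2, the S phase subunit of ribonucleotide reductase, stood at 62.9, 54.5 and 58.5 CPM in controls and 43.5, 46.3 and 51.2 CPM with RBPMS. Its groups did not overlap, and the log2 fold change was -0.32 ± 0.078 without Control 3 (adjusted p = 0.0141) and -0.32 ± 0.11 with it (adjusted p = 0.587). Rrm2 lies on chromosome 12 from 24708241 to 24714146 on the plus strand (ENSMUSG00000020649). Its partner Rrm1, whose protein is present throughout the cycle, was at 141, 128 and 148 CPM in controls and 124, 125 and 137 CPM with RBPMS, overlapping, with -0.06 ± 0.055. The difference between Rrm2 and Rrm1 was not tested.

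Tk1, the thymidine kinase of S phase, was at 26.4, 24.6 and 37.6 CPM in controls and 19.6, 20.5 and 21.8 CPM with RBPMS. Control 3 lay above all others, and the groups did not overlap. The log2 fold change was -0.31 ± 0.086 (adjusted p = 0.0337) without Control 3 and -0.52 ± 0.18 (adjusted p = 0.587) with it, and DESeq2 did not call it without Control 3. With a further library left out the Tk1 call held in 1 of 5 fits. Tk1 lies on chromosome 11 from 117815526 to 117826092 on the minus strand (ENSMUSG00000025574) and overlaps Afmid. For Dut, which hydrolyses dUTP, the groups did not overlap either, at 24.7, 27.2 and 47.8 CPM against 22.0, 21.5 and 22.8 CPM, but it was not called. Tyms, the thymidylate synthase, overlapped between groups at 33.1, 26.0 and 36.6 CPM against 24.98, 28.6 and 29.98 CPM.

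Among the E2F factors the repressor E2f8 fell, and the activator E2f1 did not pass the test. E2f8 stood at 25.3, 22.6 and 11.6 CPM in controls and 15.3, 18.2 and 18.7 CPM with RBPMS. Control 3 was the lowest of all 6 libraries, below the RBPMS range. Without it the log2 fold change was -0.46 ± 0.10 (adjusted p = 0.00578), and with it -0.18 ± 0.28 (adjusted p = 0.747). E2f8 lies on chromosome 7 from 48866429 to 48881596 on the minus strand (ENSMUSG00000046179). E2f7, its close relative and also a repressor, was at 19.1, 16.3 and 8.02 CPM in controls and 14.6, 12.9 and 18.5 CPM with RBPMS (-0.21 ± 0.13 without Control 3, 0.09 ± 0.32 with it). E2f1 was at 30.4, 28.3 and 31.1 CPM against 29.3, 31.4 and 30.1 CPM, with a log2 fold change of 0.05 ± 0.078, and E2f2 was at 1.06 to 1.51 CPM in all 6 libraries.

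Without Control 3, chromatin assembly and methylation held the smallest p of the 53; with all 6 libraries that was Pold2. Uhrf1, which reads hemimethylated DNA behind the fork and recruits Dnmt1, stood at 67.3, 60.9 and 32.4 CPM in controls and 46.1, 48.3 and 48.9 CPM with RBPMS. The RBPMS libraries lay together between Control 3 and the other controls. The log2 fold change was -0.42 ± 0.067 without Control 3 (adjusted p = 0.000437), and -0.16 ± 0.26 with it (adjusted p = 0.756). Uhrf1 lies on chromosome 17 from 56303321 to 56323486 on the plus strand (ENSMUSG00000001228). Dnmt1, the maintenance DNA methyltransferase, was at 177, 170 and 107 CPM in controls and 154, 147 and 161 CPM with RBPMS, with Control 3 again lowest of all. Its log2 fold change was -0.18 ± 0.050 (adjusted p = 0.0343) without Control 3 and 0.02 ± 0.20 (adjusted p = 0.959) with it, a change of sign. The call held in 1 of 5 fits that left out a further library. Dnmt1 lies on chromosome 9 from 20907209 to 20959888 on the minus strand (ENSMUSG00000004099). The CAF-1 histone chaperone subunit Chaf1b was at 15.8, 12.9 and 18.02 CPM against 10.6, 14.4 and 12.6 CPM (-0.19 ± 0.13 without Control 3), and its partner Chaf1a, whose locus overlaps Ubxn6, at 18.4 to 24.1 CPM against 20.2 to 22.5 CPM. Neither passed.

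**Figure D2:**
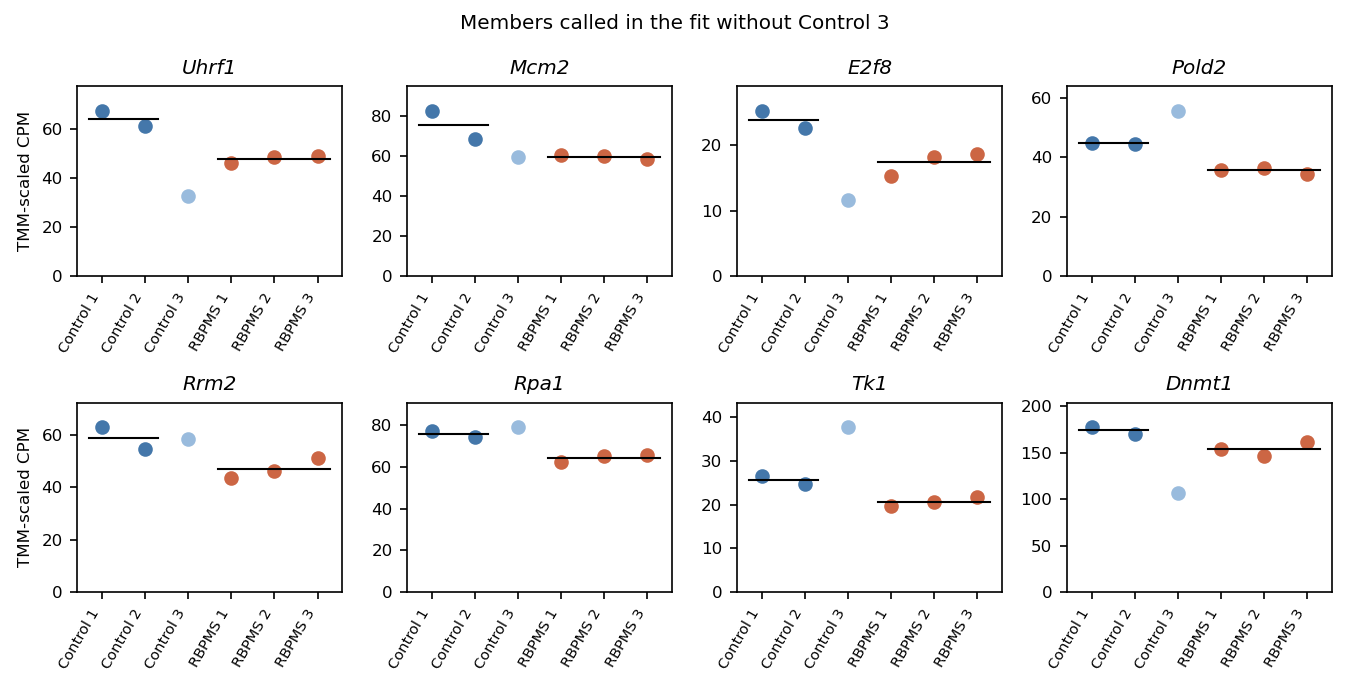
Points are TMM-scaled CPM per library, one panel per gene called without Control 3, and lines are the means of Control 1 and 2 and of the 3 RBPMS libraries. Control 3 (pale) lies with or above the other controls for Pold2, Rrm2, Rpa1 and Tk1, but at 59.2 CPM for Mcm2, 11.6 for E2f8, 32.4 for Uhrf1 and 107 for Dnmt1.

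**Figure D3:**
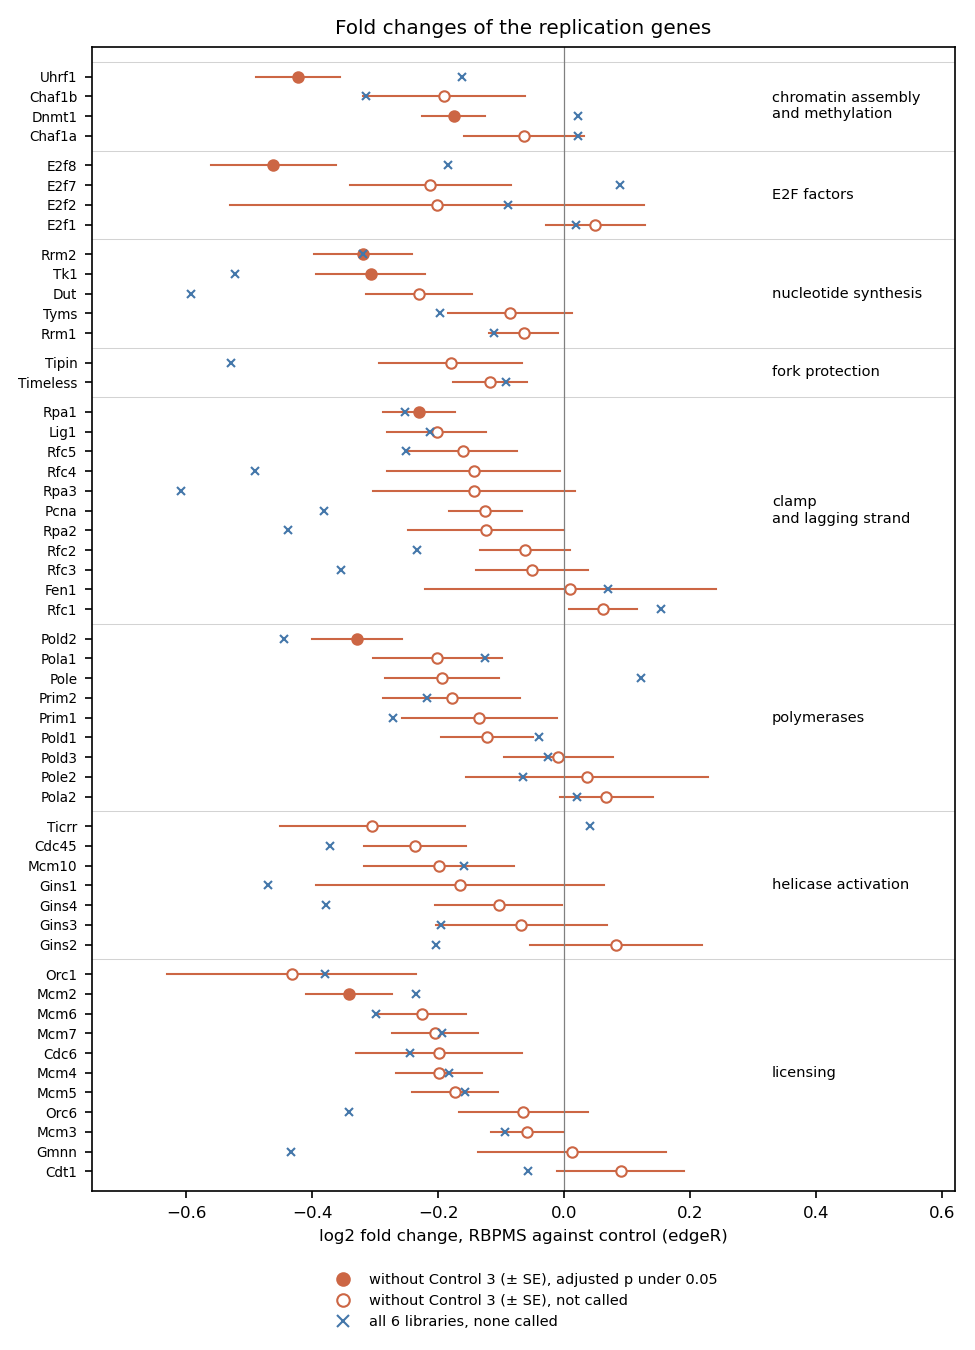
Horizontal position is the edgeR log2 fold change of each of the 53 genes, by role, without Control 3 (circles with SE, filled where called) and with all 6 libraries (crosses). The 8 filled circles run from -0.46 to -0.18, while no cross is a call.

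The role groups differed little in their medians without Control 3. They ran from -0.13 for the polymerases and for the clamp group to -0.21 for E2F factors and -0.23 for nucleotide synthesis, with -0.20 for licensing, -0.17 for helicase activation, -0.15 for fork protection and -0.18 for chromatin. No test between groups was made. With all 6 libraries the medians spread further, from -0.04 for E2F factors and -0.07 for chromatin and for polymerases to -0.31 for fork protection and -0.32 for nucleotide synthesis.

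The values of Control 3 moved with gene length among the members. In the 18 shortest members, 1136 to 3154 bases long, Control 3 exceeded the mean of Control 1 and 2 by a median log2 difference of 0.67. In the middle 17 it was 0.05 and in the 18 longest, 5198 to 11160 bases, -0.18. The extremes were Rpa3 at 1.09 and Gmnn at 1.03 on the high side and Ticrr at -1.35 and Pole at -1.26 on the low side. The median log2 fold change with all 6 libraries was -0.38 in the shortest members and -0.14 in the longest, while without Control 3 it was -0.11 and -0.20. With each library's trend on gene length taken as an offset, all 6 libraries gave a median of -0.28, 49 of 53 negative and 0 called, and all genes then had a median of -0.04. Some members departed from the trend: Uhrf1 and E2f8, of 4259 and 5443 bases, were lower in Control 3 by 0.98 and 1.04, and Rrm1, at 11012 bases, was higher by 0.14.

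**Figure D4:**
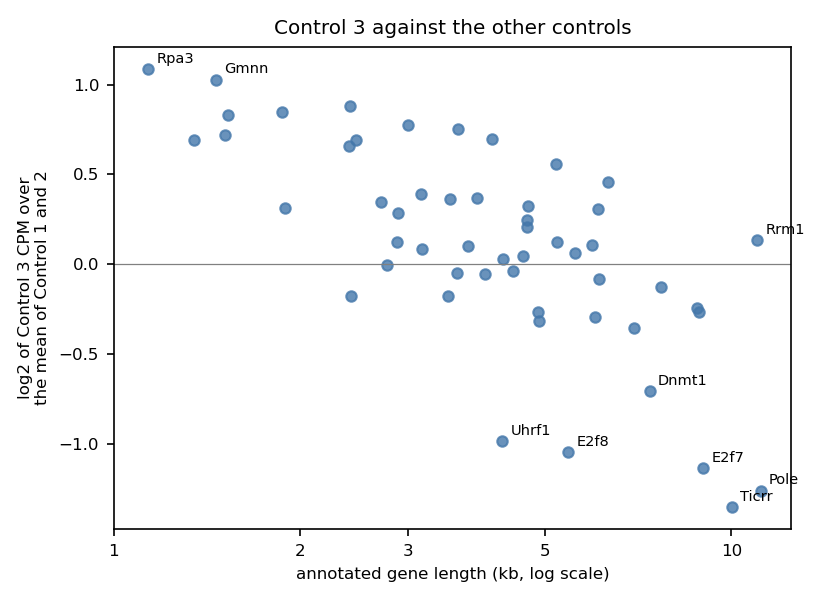
Each point is one of the 53 genes: annotated length in kb (log axis) against the log2 ratio of its CPM in Control 3 to the mean of Control 1 and 2. Values run from 1.09 for the short Rpa3 to -1.35 for the long Ticrr, with Uhrf1 and E2f8 lower than genes of like length.

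Subunits of one complex were not at one level. Per kb of annotated length, in the mean of Control 1 and 2, the MCM2-7 subunits lay between 10.9 CPM per kb for Mcm2 and 23.9 for Mcm3. How the deposited lengths were derived is not stated, so such levels are approximate. In GINS, Gins4 was at 12.9 CPM per kb and Gins1, Gins2 and Gins3 at 2.26, 2.51 and 3.40. In polymerase delta Pold2 was at 23.6 CPM per kb, Pold1 at 8.74 and Pold3 at 6.53, and the small subunit Pold4, which is outside the 53, at 53.8. In polymerase epsilon Pole was at 2.60 CPM per kb and Pole2 at 1.91, and the small subunits Pole3 and Pole4, also outside the 53, at 15.7 and 9.70. Of ribonucleotide reductase, Rrm2 was at 21.2 CPM per kb and Rrm1 at 12.2. Pcna had the highest level of the 53, at 30.4 CPM per kb, and E2f2 the lowest, at 0.275.

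**Figure D5:**
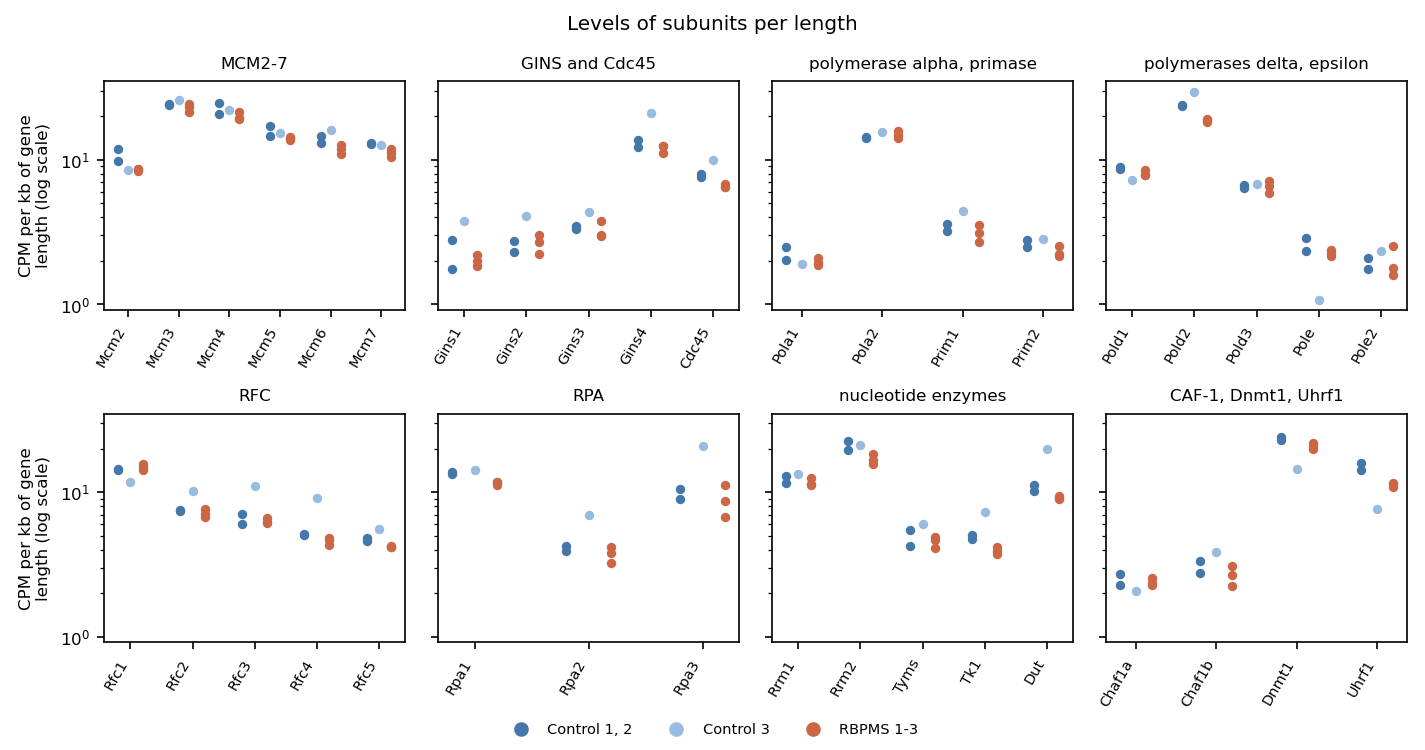
CPM per kb of annotated gene length (log axis) of subunits and partner enzymes, one point per library, with Control 1 and 2, Control 3 and the RBPMS libraries side by side. The gap between Pold2 at 23.6 and Pold3 at 6.53 CPM per kb is wider than the gap between groups for either.

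A further 58 genes of the pathway were listed alongside, and all were tested. Without Control 3, 6 fell (10.3%) and 1 rose, against 3.43% and 3.81% of all genes tested. The median log2 fold change of the 58 was -0.09, and 44 were negative (75.9%), against 50.7% of all genes. With all 6 libraries 0 were called, as over all genes, and the median was -0.10. At an unadjusted p under 0.05, 6 were lower and 0 higher, against 4.08% and 3.48% of all genes. Top2a, the topoisomerase of replicating and mitotic chromosomes, fell from a mean of 168 CPM in Control 1 and 2 to 132 CPM (-0.35 ± 0.063, adjusted p = 0.00139), with Control 3 at 125 CPM. Dbf4, the activator of the Cdc7 kinase that fires origins, fell from 33.4 to 27.3 CPM (-0.29 ± 0.082), and the PCNA-associated factor Pclaf from 27.9 to 21.6 CPM (-0.37 ± 0.11). E2f5 (-0.42 ± 0.12), the chromatin remodelling partner Cdca7 (-0.39 ± 0.094) and the histone-binding Rbbp7 (-0.18 ± 0.046) also fell. For Dbf4, Pclaf, E2f5, Cdca7 and Rbbp7, named because they were called, the RBPMS libraries lay below all 3 controls. Over the 58 genes, 14 (24.1%) lay below all 3 controls and 3 above, against 12.5% and 12.2% of all genes. Pold4, the small subunit of polymerase delta, was the 1 that rose, from 49.0 to 61.0 CPM (0.32 ± 0.073, adjusted p = 0.00996), but Control 3 had 72.4 CPM. All 7 of these calls were lost when Control 1 was left out too.

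In the list of other E2F and pocket proteins, 3 of 11 genes lay higher in all RBPMS libraries than in all controls without passing the test. Of all genes 12.2% did so. Control 3 was the lowest library for each of the 3. Without Control 3 the same 3 lay above both controls, where 18.3% of all genes did. The retinoblastoma gene Rb1 was at 29.5, 29.6 and 23.4 CPM in controls and 33.6, 33.8 and 33.9 CPM with RBPMS, the related Rbl2 at 23.4, 23.9 and 18.3 CPM against 25.6, 27.4 and 24.9 CPM, and the E2F partner Tfdp2 at 26.0, 26.1 and 18.2 CPM against 28.6, 28.2 and 27.4 CPM. They were singled out after their values were seen. Rb1 and Rbl2 encode proteins that restrain E2F factors. The pocket protein gene Rbl1 went the other way without Control 3 (-0.20 ± 0.10, not called). Over the 11 genes of that list the median without Control 3 was -0.0082, with 6 negative and 5 positive. Of the 11 genes handling histones and chromatin at the fork, 10 were negative without Control 3, against 50.7% of all genes, and 7 lay below both controls in all RBPMS libraries, against 19.0%. The 13 other genes of origin recognition and firing had a median of -0.01, with 7 negative and 6 positive.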

How the data were processed

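Total RNA was depleted of ribosomal RNA and sequenced in 6 libraries, 3 per group. The deposited file holds raw counts per gene and annotated gene lengths in bases. FastQC, Salmon and mm10 are named per the submitters' processing notes. Not given in the sources used here are versions, the step to whole counts and strand use. Reads of overlapping genes and copies may therefore be split. Of the 53 members, 12 overlap a gene with at least 5% of their own count.

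Counts were tested with edgeR 4.0.16 in R 4.3.3: filterByExpr, TMM, quasi-likelihood with group as the only term, and Benjamini-Hochberg adjustment over all genes tested, called at an adjusted p under 0.05. The common biological coefficient of variation came to 0.196 for the 6 libraries and to 0.0489 for the 5 without Control 3. Levels are TMM-scaled CPM from the fit of all 6 libraries, standard errors are the fold change over the root of F, and relative levels have 0.1 CPM added. No pair of libraries of a group was a copy (chi-square per degree of freedom of at least 3.19). The procedure was tested on simulated data with a biological coefficient of variation of 0.05. That is near the 0.0489 without Control 3 but well below the 0.196 of the 6 libraries. The simulation therefore says little about the fit of all 6.

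Members, lists and both fits were chosen with earlier results of these data known. In each role group the members named by rule are those called without Control 3, the 2 highest per kb and the 2 with the largest fold change above a mean of 5 CPM. Others are given with values outside this rule, among them Orc1, Cdt1, Mcm5, Mcm7, Pold1, Pold3, Dut, Tyms and Chaf1a. Other pathway genes are the up to 3 called per list with the smallest p. Alternatives were a replicate block, DESeq2 1.42.0 size factors, no filter, the DESeq2 Wald test, limma-voom 3.58.1, a loess trend on gene length (span 0.5) as offset, and each library left out.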

Additional observations from a re-analysis of the deposited data

How the results depend on the processing

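With all 6 libraries, 0 members were called under every alternative that kept the 6, and 8 without Control 3 (range 0 to 8 when leaving out 1 library). Their median log2 fold change was -0.28 with the gene length offset and -0.26 to -0.17 with 1 library left out. Rbpms passed with no filter (1.28), DESeq2 (1.28) and the length offset (1.17), and had 1.23 to 1.32 with 1 library left out. Without Control 3 the count of called members was 7 to 11 under the other settings. With a further library left out the median was -0.20 to -0.068. Calls over all genes in these fits, the replicate block among them, are not given here. The counts alone therefore do not show whether the members stand out under those settings. Of the 8 calls 7 held in all 6 other settings, and 5 other members were called in some setting.

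Some log2 fold changes near 0 turned sign. With the length offset on all 6 libraries Ticrr had -0.095, E2f7 -0.036 and Dnmt1 -0.084. Leaving out 1 of the 6 gave -0.18 to 0.15 for Dnmt1, -0.021 to 0.049 for E2f1, -0.21 to 0.34 for E2f7, -0.46 to 0.029 for E2f8 and -0.024 to 0.067 for Pola2. It gave -0.049 to 0.32 for Pold4, -0.30 to 0.31 for Ticrr and -0.42 to 0.035 for Uhrf1. Leaving out 1 more beside Control 3 gave -0.0014 to 0.10 for E2f1, -0.13 to 0.0062 for Rrm1 and -0.35 to 0.0071 for Tipin. The cause was not tested.

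With the replicate number as a block, 0 members were called with all 6 libraries and 11 without Control 3. Same-numbered libraries did not deviate together (correlations of 0.045, -0.032 and 0.0044), and not every library correlated best with its own number, so the numbers were not taken as pairs. The 4 members with a mean under 5 CPM, Fen1, Orc1, Gins1 and E2f2, had standard errors of 0.20 to 0.33 without Control 3, so changes of the size seen elsewhere were not detectable at this depth.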
